A study of Mus musculus with 6 samples.

Results

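The expression of 10 genes of the circadian clock was examined in mouse hearts with heart failure with preserved ejection fraction (HFpEF) and in chow-fed control hearts. The 10 genes were chosen by symbol, out of 54532 gene identifiers in the deposited table, and all 10 were matched by their Ensembl identifier. Levels are given as FPKM, in which fragments are divided by exon length and by a depth value for each library, so that genes can be set side by side. The genes comprised the activators Arntl (also called Bmal1), Npas2 and Clock, the repressors Per1, Per2, Per3, Cry1, Nr1d1 and Nr1d2, and the output factor Dbp. Both groups consisted of male C57BL/6 mice, 6 to 8 weeks old at the start and kept for 12 weeks under 12 h of light per day. The 3 HFpEF mice were fed a high-fat diet (60% of energy as fat) and took the nitric oxide synthase inhibitor L-NAME at 0.5 g/L with their water, and the 3 Chow mice received standard chow and plain water. Left ventricular tissue gave 1 library per mouse. The clock time at which each heart was taken is not given in the sources used here, so diet, L-NAME and the time of collection cannot be told apart.

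In the mammalian clock, a dimer of Arntl with Clock or Npas2 binds E-box sequences and drives the Per, Cry, Nr1d1, Nr1d2 and Dbp genes. Per and Cry proteins return to block the dimer, while Nr1d1 and Nr1d2 (the REV-ERB nuclear receptors) bind ROR elements in the Arntl promoter and silence it. Transcripts of Arntl and Npas2 therefore run opposite in phase to those of Nr1d1 and Dbp, in the heart as in other tissues. Dbp acts through D-box sequences, and Clock itself cycles little. On GRCm38 the genes lie as follows: Arntl (ENSMUSG00000055116) at chr7:113207465-113314126, Npas2 (ENSMUSG00000026077) at chr1:39193731-39363236, Clock (ENSMUSG00000029238) at chr5:76209868-76304792, Per1 (ENSMUSG00000020893) at chr11:69095217-69109960, Per2 (ENSMUSG00000055866) at chr1:91415982-91459324, Per3 (ENSMUSG00000028957) at chr4:151003652-151044665, Cry1 (ENSMUSG00000020038) at chr10:85131700-85185064, Nr1d1 (ENSMUSG00000020889) at chr11:98767932-98775333, Nr1d2 (ENSMUSG00000021775) at chr14:18204054-18239127 and Dbp (ENSMUSG00000059824) at chr7:45705088-45710203.

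To show these elements in the genes measured, RefSeq promoter windows on GRCm38.p6 were searched from 250 bases before to 50 bases after each transcription start, on both strands. The searched letters were CACGTG for the E-box, CACGTT for its common variant, ANNTN followed directly by GGTCA for the ROR element and TTATGNAA for the D-box. Windows were present for 9 of the 10 genes, all except Per2, and numbered 13. The site with the ROR element letters in Arntl lay 28 to 37 bases after 1 of its listed starts, inside the transcript, and is shown with its flanks, 30 bases in all. For Per1, Per3, Cry1 and Nr1d1 the 250 bases before the start are shown, because they hold the other matches. Capitals mark the matched letters, and every line runs 5′ to 3′ on the strand of the gene.
Arntl site, chr7:113207528-113207557, plus strand: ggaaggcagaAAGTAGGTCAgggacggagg
Per1, chr11:69098699-69098948, plus strand: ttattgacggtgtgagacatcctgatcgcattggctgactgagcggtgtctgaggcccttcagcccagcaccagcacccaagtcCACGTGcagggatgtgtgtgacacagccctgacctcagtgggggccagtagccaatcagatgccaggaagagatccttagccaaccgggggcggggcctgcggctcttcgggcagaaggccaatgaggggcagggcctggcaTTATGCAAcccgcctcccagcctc
Per3, chr4:151044666-151044915, minus strand: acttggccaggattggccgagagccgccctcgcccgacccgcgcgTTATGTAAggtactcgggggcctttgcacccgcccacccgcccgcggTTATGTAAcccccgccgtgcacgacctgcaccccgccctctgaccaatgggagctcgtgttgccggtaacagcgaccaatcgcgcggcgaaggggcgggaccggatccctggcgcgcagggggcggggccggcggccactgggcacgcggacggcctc
Cry1, chr10:85185055-85185304, minus strand: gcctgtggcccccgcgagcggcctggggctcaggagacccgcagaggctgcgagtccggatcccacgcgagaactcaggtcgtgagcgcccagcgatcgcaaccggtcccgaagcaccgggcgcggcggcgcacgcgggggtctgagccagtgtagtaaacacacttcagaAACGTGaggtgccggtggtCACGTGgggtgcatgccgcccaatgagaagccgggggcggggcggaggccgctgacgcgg
Nr1d1, chr11:98775378-98775627, minus strand: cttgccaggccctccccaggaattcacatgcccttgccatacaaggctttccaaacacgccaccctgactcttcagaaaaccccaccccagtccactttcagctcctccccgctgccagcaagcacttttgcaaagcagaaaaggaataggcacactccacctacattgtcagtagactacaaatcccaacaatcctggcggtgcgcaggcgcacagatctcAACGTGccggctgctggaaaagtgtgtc

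The E-box letters were found in Per1 and Cry1, and in 7.15% of all 32817 mouse windows of that length. The variant was found in Cry1 and Nr1d1 (4.69% of all windows), where the capitals read AACGTG because the match is on the other strand. The D-box letters occurred in Per1 and at 2 positions in Per3 (3.39% of all windows), and the ROR element only in Arntl among the 9 genes (2.46% of all windows). The cAMP response element, TGACGTCA, was found in 0 of the 9 genes and in 1.79% of all windows. A match is a description of the sequence and not a measured binding site, and windows without a match, such as those of Npas2, Nr1d2 and Dbp, say nothing of elements farther away.

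The libraries differed in make-up before any clock gene was considered. Whole read numbers recovered from the FPKM totalled 13076772 to 15574914 per Chow library and 13461735 to 16027084 per HFpEF library. HFpEF replicate 3 stood apart, at 75.5 on the first principal component (42.3% of the variance), against 11.6 and 12.7 for HFpEF replicates 1 and 2 and −35.8 to −31.7 for Chow. Its mitochondrially encoded genes took 7.17% of reads, against 20.1% to 26.0% in the other 5 libraries. Ventricular cardiomyocyte markers were abundant in all 6 libraries of this tissue, labelled heart, and their summed FPKM over 8 genes was 14542, 15317 and 16097 across Chow replicates 1 to 3, against 10292, 10958 and 7030 across HFpEF replicates 1 to 3. The most abundant of them, Actc1 (cardiac actin), averaged 4983 ± 464 FPKM over Chow mice (SD, n = 3) and 3233 ± 709 over HFpEF mice (SD, n = 3). All 8 were lower in every HFpEF library than in every Chow library, where 19.7% of all 14227 genes tested were so. In bulk tissue, fewer cells of a type and less RNA per cell cannot be told apart.

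Atrial markers (Myl4, Myl7, Nppa and Sln) had a summed FPKM of 13.3 and 16.2 in Chow replicates 1 and 2 but 538 in Chow replicate 3, and of 2305 and 3834 in HFpEF replicates 1 and 2 but 20.6 in replicate 3. Myl7, the atrial light chain and the most abundant of them, had an FPKM of 237 in Chow replicate 3, and Sln (sarcolipin) was listed at 0 in Chow replicates 1 and 2. Atrial transcripts thus stood high in 3 libraries, 1 from Chow, although the tissue is described as left ventricle. Fibroblast markers summed to 220 to 259 in Chow and to 425, 494 and 5522 in HFpEF replicates 1, 2 and 3. The last sum was mostly matrix genes, with Col1a1 at 2252 FPKM in HFpEF replicate 3 against 54.0 and 87.2 in replicates 1 and 2, Col3a1 at 1810 against 61.6 and 118, and Postn at 356 against 19.2 and 16.2. The fibroblast genes Pdgfra (13.0 FPKM against 11.3 and 11.6), Dcn (196 against 177 and 168) and Tcf21 (9.61 against 9.44 and 5.30) stood far closer among the HFpEF libraries. Macrophage markers, led by Lyz2, summed to 207 to 265 in Chow and to 257, 346 and 877 in HFpEF replicates 1, 2 and 3. Adipocyte markers, led by Cfd, summed to at most 0.0481 in any Chow library and to 89.3, 88.2 and 36.6 in the HFpEF libraries. Of 6 liver markers, only Hp (0.412 to 0.656 FPKM in Chow, 9.40 to 25.2 in HFpEF) and Cyp2e1 (at most 0.0651 in Chow, 5.71 to 10.3 in HFpEF) were higher in every HFpEF library. The more specific liver genes did not follow: Alb (albumin) was listed at 0 in all 6 libraries, and Apoa1, Ttr and Serpina1a were at most 0.387 FPKM. Endothelial markers (led by Cdh5) summed to 201 to 223 and 161 to 174 and smooth muscle and pericyte markers (Acta2) to 260 to 301 and 199 to 647, Chow first in each case. Of the skeletal muscle list, Ckm, which heart muscle also expresses, was the most abundant, whereas the defining Myh4 was listed at 0 in all 6 libraries and Myh1 and Myh2 were at most 0.0796 FPKM. The part of these cell types in the clock gene values was not tested.

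**Figure D1:**
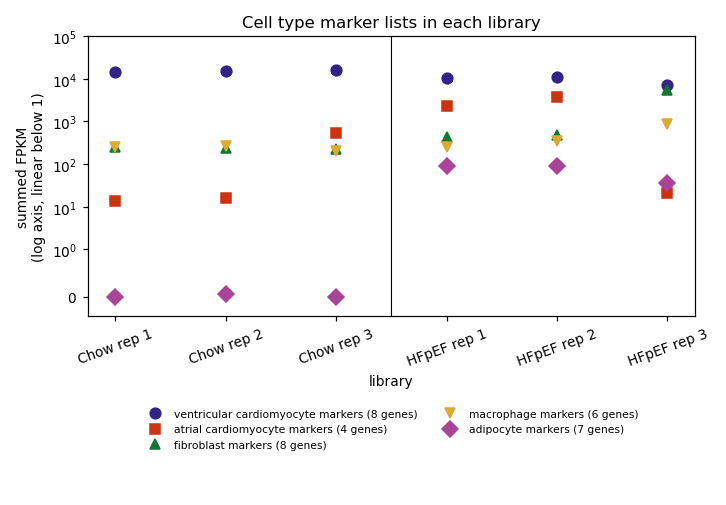
Summed FPKM (logarithmic axis, linear below 1) of 5 marker lists in each of the 6 libraries, with 1 point per list and library. Atrial markers are high in Chow replicate 3 and HFpEF replicates 1 and 2, and the fibroblast list, through its collagens and Postn, reaches 5522 in HFpEF replicate 3.

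None of the 10 clock genes separated the groups. For every one of them the FPKM of the Chow and HFpEF libraries overlapped, whereas the groups did not overlap for 35.3% of all genes tested (15.6% with HFpEF above Chow and 19.7% below). None passed an adjusted p of 0.05 (limma's moderated test on log2(FPKM + 0.1), Benjamini-Hochberg over 14227 genes, 0.0984% of all genes called, or 0.0562% when a log2 fold change of 2 or more in either direction was also asked). None had an unadjusted p under 0.05 either, which 23.4% of all genes had. With limma's voom on the recovered reads, 0 of all 14227 genes passed an adjusted p of 0.05, so that fit carries no information on the clock genes at this threshold. The median log2 fold change, HFpEF minus Chow, was −0.12 over the 10 genes (3 positive, 7 negative) and −0.012 over all genes tested. Over the 10 genes it was −0.038 without HFpEF replicate 3 and −0.080 without Chow replicate 3. The lowest adjusted p among them was 0.349, for Npas2. Exact two-sided permutation tests on single genes gave p from 0.3 to 0.7, where 0.1 is the smallest that 3 mice against 3 allow.

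**Figure D2:**
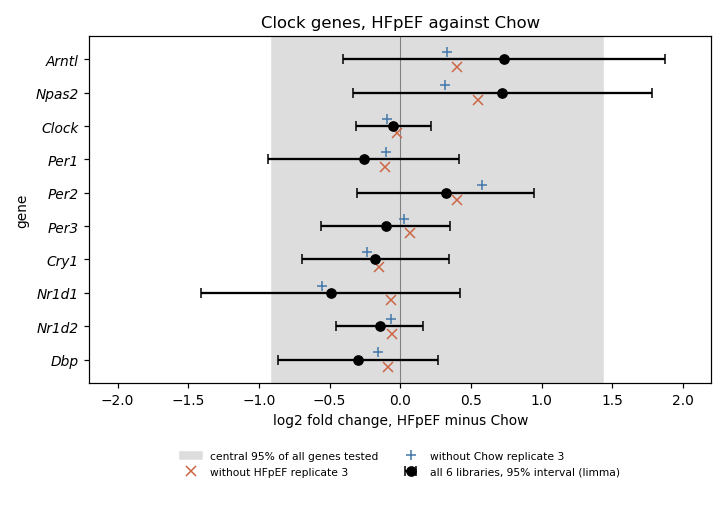
Log2 fold change, HFpEF minus Chow, of the 10 clock genes, with limma's 95% interval over 6 libraries and the values without HFpEF replicate 3 or Chow replicate 3; the grey band holds the central 95% of all genes tested. Every interval includes 0, and the widest are those of Arntl, Npas2 and Nr1d1.

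Among the activators, Arntl, the partner of Clock or Npas2 in the dimer, had 1.13, 0.714 and 0.330 FPKM across Chow replicates 1 to 3, against 0.931, 0.863 and 1.91 across HFpEF replicates 1 to 3. Chow replicate 3 was the lowest and HFpEF replicate 3 the highest of all 6, while the remaining 4 libraries of both groups lay between them and overlapped. These values rest on 121, 63 and 30 reads in Chow and 97, 110 and 277 in HFpEF. The exact 95% Poisson intervals, which cover counting error only, were 0.222 to 0.471 FPKM in Chow replicate 3 and 0.937 to 1.35 in Chow replicate 1, so the spread within Chow exceeded counting error. The log2 fold change was 0.74 (95% interval −0.40 to 1.88, adjusted p = 0.375 from limma). It was 0.40 without HFpEF replicate 3, 0.33 without Chow replicate 3 and 1.09 without Chow replicate 1, and 0.37 with a pseudocount of 1. Without both libraries numbered 3, a setting picked once the values were known, it was −0.0076.

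Npas2, which can take the place of Clock in the dimer, followed the same libraries. Its FPKM was 1.03, 0.587 and 0.276 across Chow replicates 1 to 3, against 0.814, 0.936 and 1.29 across HFpEF replicates 1 to 3. Again Chow replicate 3 was lowest and HFpEF replicate 3 highest, and the groups overlapped. The log2 fold change was 0.72 (95% interval −0.33 to 1.78, adjusted p = 0.349 from limma), 0.31 without Chow replicate 3, 1.11 without Chow replicate 1 (adjusted p = 0.328) and 0.32 with a pseudocount of 1. Clock differed least: its FPKM stayed within 3.79 to 4.21 in Chow and 3.73 to 4.21 in HFpEF, with a log2 fold change of −0.051 (95% interval −0.32 to 0.21, adjusted p = 0.801 from limma), or −0.10 to −0.019 with 1 library left out.

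**Figure D3:**
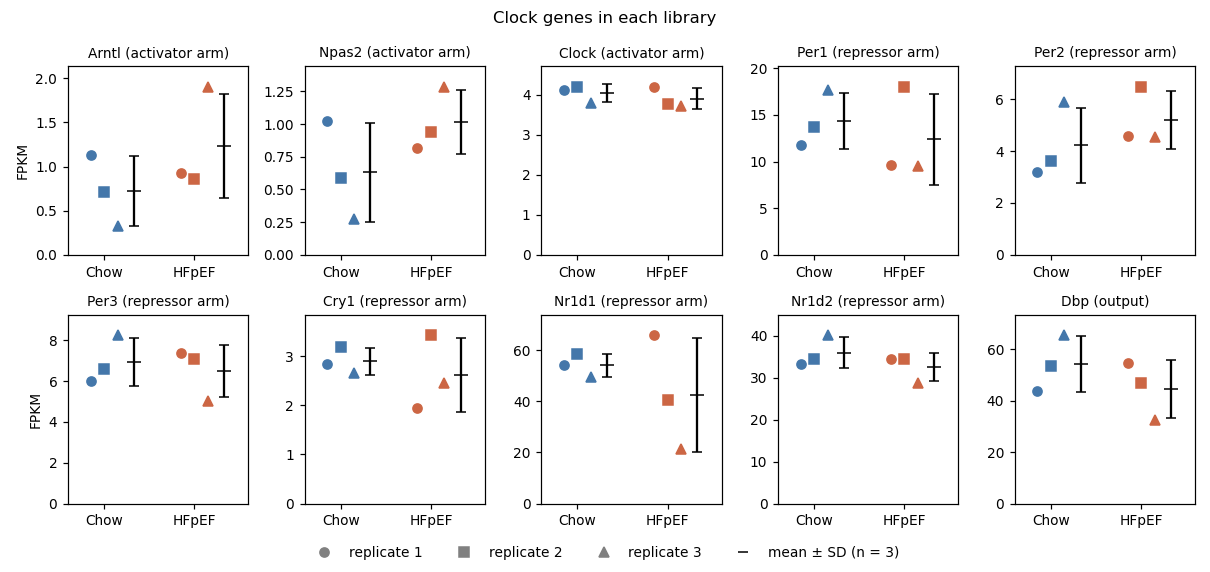
FPKM of the 10 clock genes in each library, with 1 panel per gene, 1 symbol per mouse and the mean ± SD (n = 3) of each group. Chow and HFpEF libraries overlap in every panel, and Arntl and Npas2 are lowest in Chow replicate 3 and highest in HFpEF replicate 3.

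Among the repressors, Nr1d1, the REV-ERB alpha receptor, had the highest mean FPKM in Chow beside Dbp and the widest spread in HFpEF. Its FPKM was 54.3, 58.6 and 49.5 across Chow replicates 1 to 3, against 65.9, 40.5 and 21.3 across HFpEF replicates 1 to 3. HFpEF replicate 1 exceeded all Chow libraries and HFpEF replicates 2 and 3 lay under them. The log2 fold change of −0.49 (95% interval −1.41 to 0.42, adjusted p = 0.453 from limma) was −0.067 without HFpEF replicate 3 and −0.88 without HFpEF replicate 1 (adjusted p = 0.156). With Chow replicates 1 and 2 set against HFpEF replicate 3 alone, which leaves out the 3 libraries with high atrial transcripts, Nr1d1 passed (−1.40, adjusted p = 0.00185 from limma), in a fit that called 34.4% of all genes and that takes the lone library to vary like Chow. Nr1d2, the REV-ERB beta receptor, varied less, with 33.4, 34.4 and 40.2 FPKM across Chow replicates 1 to 3, against 34.6, 34.6 and 28.8 across HFpEF replicates 1 to 3. The groups overlapped, and the log2 fold change was −0.14 (95% interval −0.45 to 0.16, adjusted p = 0.510 from limma), −0.056 without HFpEF replicate 3 and −0.063 without Chow replicate 3. Its direction turned without both libraries numbered 3 (0.024) and with quantile normalization (0.0013).

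Per1, a period gene that also responds acutely to glucocorticoid and cAMP signals, had 11.8, 13.7 and 17.6 FPKM across Chow replicates 1 to 3, against 9.62, 18.0 and 9.56 across HFpEF replicates 1 to 3. HFpEF replicate 2 was the highest of all 6 libraries and the other HFpEF libraries were the lowest. Per2, its partner in the repressor complex, had 3.18, 3.62 and 5.87 FPKM across Chow replicates 1 to 3, against 4.56, 6.48 and 4.54 across HFpEF replicates 1 to 3. It was the only repressor with a positive log2 fold change, 0.32 (95% interval −0.30 to 0.94, adjusted p = 0.471 from limma), and the groups overlapped. The change was 0.15 without Chow replicate 1, also 0.15 without HFpEF replicate 2, and 0.58 without Chow replicate 3 (adjusted p = 0.321 from limma). Per3 ranged from 5.99 to 8.25 in Chow and from 5.04 to 7.37 in HFpEF, and Cry1, which blocks the dimer most directly, from 2.65 to 3.19 in Chow and from 1.95 to 3.43 in HFpEF. The log2 fold changes of Per1, Per3 and Cry1 were −0.26, −0.10 and −0.18, with adjusted p from 0.597 to 0.760 (limma), and that of Per3 was positive without HFpEF replicate 3 (0.066) or Chow replicate 3 (0.025). That of Per1 ran from −0.56 without HFpEF replicate 2 to −0.10 without Chow replicate 3, while leaving out HFpEF replicate 2 put Cry1 at −0.38 and leaving out HFpEF replicate 1 put it at 0.011. Without both libraries numbered 3, Per1 and Per3 turned to 0.051 and 0.19.

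Dbp, a transcription factor whose own gene is a direct target of the dimer, had 43.9, 53.6 and 65.6 FPKM across Chow replicates 1 to 3, against 54.6, 46.8 and 32.4 across HFpEF replicates 1 to 3. Chow replicate 3 was the highest library and HFpEF replicate 3 the lowest, the reverse of Arntl. The log2 fold change was −0.30 (95% interval −0.86 to 0.26, adjusted p = 0.458 from limma), −0.087 without HFpEF replicate 3, −0.15 without Chow replicate 3 and −0.46 without HFpEF replicate 1. With quantile normalization it was −0.11, and without both libraries numbered 3 it turned to 0.058. Against HFpEF replicate 3 alone, without the libraries with high atrial transcripts, the log2 fold change of Dbp was −0.58, a value that rests on 1 HFpEF library. Of the exon bases of Dbp in GENCODE M21, 18.0% are shared with Sphk2 on the opposite strand, and of those of Nr1d1 8.55% are shared with Thra. Whether reads were counted by strand is not given in the sources used here, so reads from these overlaps are uncertain.

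The order of the mean FPKM in Chow was Dbp (54.3 ± 10.8 SD, n = 3), Nr1d1 (54.1 ± 4.54 SD), Nr1d2 (36.0 ± 3.65 SD), Per1 (14.4 ± 2.99 SD), Per3 (6.95 ± 1.17 SD), Per2 (4.23 ± 1.45 SD), Clock (4.04 ± 0.223 SD), Cry1 (2.89 ± 0.274 SD), Arntl (0.724 ± 0.400 SD) and Npas2 (0.630 ± 0.377 SD). Neighbours whose ranges over Chow libraries overlapped were Dbp and Nr1d1, Per2 and Clock, and Arntl and Npas2. The HFpEF means, from 44.6 for Dbp down to 1.01 for Npas2, stood in the same order. In all 6 libraries Nr1d1 was more abundant than Arntl. The ratio of their FPKM was 48.1, 82.1 and 150 across Chow replicates 1 to 3, against 70.8, 46.9 and 11.2 across HFpEF replicates 1 to 3. HFpEF replicate 3 had the lowest ratio of all libraries and Chow replicate 3 the highest, and the other HFpEF libraries lay within the Chow range or, for replicate 2, just under it.

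The arms were then compared within each library, as the mean deviation of each gene from its 6-library mean of log2(FPKM + 0.1). The activators minus the repressors gave 0.35, −0.22 and −1.05 across Chow replicates 1 to 3, against 0.12, −0.14 and 0.94 across HFpEF replicates 1 to 3. The groups overlapped, averaging −0.31 ± 0.70 over Chow (SD, n = 3) and 0.31 ± 0.56 over HFpEF (SD, n = 3). The difference of 0.61 between the means lay between the SDs of the groups, under that of Chow and over that of HFpEF, and was 0.35 with a pseudocount of 1. With 1 library left out it ran from 0.24 without Chow replicate 3 to 0.94 without Chow replicate 1, and no test was made of a score over chosen genes. Without both libraries numbered 3, a setting picked once the values were known, the difference was −0.074. Without the 3 libraries with high atrial transcripts, picked likewise, it was 0.87, with HFpEF replicate 3 as the only HFpEF library. Leaving out both libraries numbered 3 removed the lowest Chow and the highest HFpEF score, so a smaller difference was fixed beforehand. Leaving out HFpEF replicate 3 alone gave 0.30. The arms lay farthest apart in Chow replicate 3, where the activators averaged −0.81 and the repressors 0.24, and in HFpEF replicate 3, where they averaged 0.55 and −0.38. In the other 4 libraries the arms lay within 0.35 of each other.

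**Figure D4:**
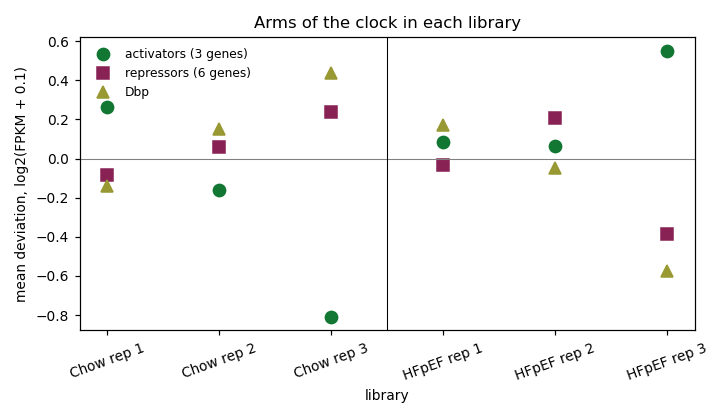
Mean deviation of the 3 activators and the 6 repressors, and the deviation of Dbp, in log2(FPKM + 0.1) from the 6-library mean, for each library. Activators and repressors lie far apart in Chow replicate 3 and HFpEF replicate 3, in opposite order, and within 0.35 of each other in the other 4 libraries.

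Single genes behaved differently in the 2 libraries. In Chow replicate 3, Per1, Per2, Per3, Nr1d2 and Dbp were at their highest Chow value, with Chow replicate 1 lowest for each of these 5, a placing shared by 17.4% of all genes tested. Nr1d1 and Cry1 did not follow, with their lowest Chow value in replicate 3. In HFpEF replicate 3, Arntl and Npas2 had the highest value of all 6 libraries (30.5% of all genes tested did), and Clock, Per1, Per3, Nr1d1, Nr1d2 and Dbp the lowest (34.6% of all genes tested). There Per2 lay inside the Chow range and Cry1 under it. HFpEF replicate 3 is also the library with the lowest summed ventricular and the highest summed fibroblast-list and macrophage markers, and Chow replicate 3 the Chow library with atrial transcripts.

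**Figure D5:**
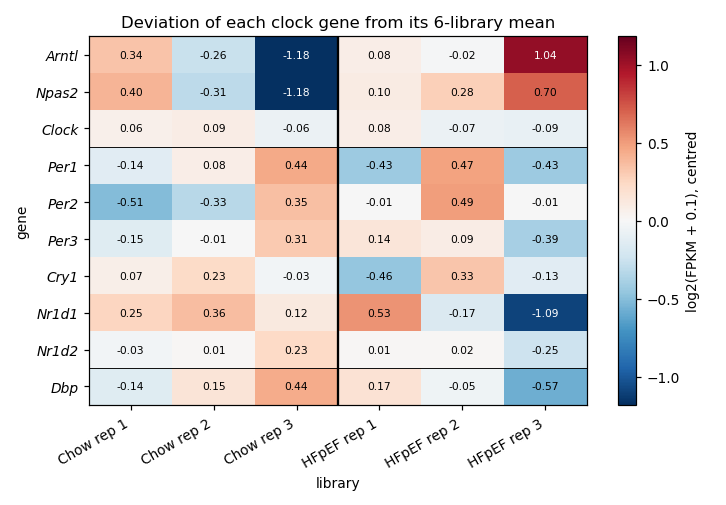
Deviation of each clock gene (rows) from its 6-library mean in each library (columns), in log2(FPKM + 0.1), with red above and blue below the mean. Arntl and Npas2 reach −1.18 in Chow replicate 3, and Nr1d1 reaches −1.09 in HFpEF replicate 3.

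The spread among control mice was wide for several of these genes. The SD of log2(FPKM + 0.1) over the 3 Chow libraries was 0.76 for Arntl, 0.79 for Npas2, 0.46 for Per2, 0.29 for Per1 and 0.29 for Dbp. Of the tested genes with 0.5 to 2 times the read number of each, 0.673% had an SD as large as that of Arntl, 1.66% as that of Npas2, 1.19% as that of Per2, 2.02% as that of Per1 and 1.39% as that of Dbp. Clock (0.080) and Cry1 (0.13) were no more variable in Chow than most genes of like read number, of which 58.0% and 66.2% had as large an SD. In HFpEF, where like genes varied more, Nr1d1 had the widest spread of the 10 (SD 0.81, reached by 2.76% of like genes).

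The remaining clock machinery was examined in the same way. Of 11 other loop and output factors, 10 were tested, and 0 passed an adjusted p of 0.05 or an unadjusted p of 0.05 (limma). Of all genes tested, 0.0984% and 23.4% did, so 0 of 10 at the adjusted threshold carries little information. In every HFpEF library 1 of the 10 was lower than in every Chow library, as were 19.7% of all genes. The median log2 fold change of these factors was −0.15 (−0.089 without HFpEF replicate 3 and −0.078 without Chow replicate 3). Ciart, a repressor of the dimer, had 2.80, 6.63 and 8.89 FPKM across Chow replicates 1 to 3, against 4.76, 4.88 and 2.198 across HFpEF replicates 1 to 3, in the same order as Dbp within Chow. Its log2 fold change was −0.55 (SE 0.49, adjusted p = 0.505 from limma), −0.19 without HFpEF replicate 3 and −0.21 without Chow replicate 3, and as low as −1.03 with another library left out. Of 11 kinases, ubiquitin ligases and other modifiers of clock proteins, 10 were tested and 0 passed either threshold, beside the same 0.0984% and 23.4% of all genes. In every HFpEF library 1 was higher and 1 lower than in every Chow library, placings that 15.6% and 19.7% of all genes shared. The median log2 fold change was −0.049 (−0.091 without Chow replicate 3).

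Genes that the clock is known to control in heart muscle were then examined. Of the 12 tested, 0 passed an adjusted p of 0.05 (limma), 1 had an unadjusted p under 0.05 and a positive change and 5 a negative one, against 23.4% of all genes in either direction. The median log2 fold change was −0.48, against −0.012 over all genes, and −0.21 without HFpEF replicate 3, against −0.0090 over all genes. These 5 genes, among them Kcnip2, Dgat2, Ucp3 and Nampt, had lower values in every HFpEF library than in any Chow library, and Por a higher value, placings that 19.7% and 15.6% of all genes shared. Kcnip2, a subunit of the transient outward potassium channel, had 62.7, 58.2 and 54.0 FPKM across Chow replicates 1 to 3, against 39.9, 37.8 and 22.5 across HFpEF replicates 1 to 3 (log2 fold change −0.84, SE 0.23, adjusted p = 0.124 from limma). Dgat2, of triglyceride synthesis, and Ucp3, a mitochondrial carrier, had log2 fold changes of −0.77 and −0.75 (adjusted p = 0.155 and 0.115 from limma), and Dgat2 had −0.49 without HFpEF replicate 3. Klf15, a transcription factor of cardiac metabolism, had −0.63 (adjusted p = 0.349), or −0.16 without HFpEF replicate 3.

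Without HFpEF replicate 3, 5 of the 12 passed an adjusted p of 0.05 by limma, in a fit that called 1188 genes (8.35% of those tested). Among them were Kcnip2 (0.0175), Dgat2 (0.0216), Nampt (0.0348) and Por (0.0401, higher in HFpEF). Ventricular markers moved with these genes: their median log2 fold change was −0.61 with all libraries and −0.39 without HFpEF replicate 3. Kcnip2 and Ucp3 are themselves muscle genes, and the part of cardiomyocyte content in their values was not tested. No clock gene passed in that fit, where the adjusted p of the 10 ran from 0.457 to 0.935.

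The genes nearest to Arntl over the 6 libraries, by root mean square difference of centred log2(FPKM + 0.1), were the long noncoding RNA Gm19710 (0.063), Rtl10 (0.18), Npas2 (0.19), Cybb (0.21), Uhrf1 (0.21) and Clec7a (0.21), against a root mean square of 0.67 for Arntl itself. Npas2 was thus the third nearest of all genes tested. Gm19710 rests on 2 to 21 reads per library. Cybb and Clec7a are expressed by macrophages, and the macrophage marker Cd68 stood at rank 61. The other macrophage markers, Csf1r, C1qa, C1qb, Adgre1 and Lyz2, stood beyond rank 196. The genes nearest to Dbp were Nme2 (0.068), Ppat (0.087), Zfp799 (0.088), Gm39214 (0.090) and Smim19 (0.092), against 0.32 for Dbp itself. Tef, a close relative of Dbp, stood at rank 26 (0.12) and Per3 at rank 34 (0.13). Other listed genes near Dbp were Klf9 (rank 51, 0.14), the ventricular marker Ttn (rank 103, 0.15), Cry2 (rank 164, 0.16) and Mt1 (rank 177, 0.16). All ventricular markers other than Ttn stood beyond rank 177. With 6 libraries and this many genes, many patterns coincide, and the lists are a description of these libraries.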

How the data were processed

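RNA was sequenced from left ventricles of 3 Chow and 3 HFpEF mice, from separate animals. The authors used HISAT2 for alignment and featureCounts for gene counts, and deposited the values as FPKM. The build named is GRCm38, and the annotation and counting strand are not given in the sources used here. Multiplied by exon length in GENCODE M21 (54495 of 54532 identifiers), 96.1% to 96.2% of values above 0 were whole multiples of the value of 1 read, at a relative tolerance of 1e-06, which gave the read numbers.

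Values were scaled between libraries by medians of ratios (factors 0.999 to 1.00), so FPKM as deposited was nearly the same setting. The depth value implied by the deposited FPKM did not follow the recovered reads. It was 19316914 against 15196287 reads in HFpEF replicate 3, and 11734336 against 13076772 in Chow replicate 2. The 14227 genes reaching 0.5 FPKM in 3 or more libraries were tested with limma 3.58.1 (trend and robust options, R 4.3.3) on log2(FPKM + 0.1), a scale that understates changes of low genes. Other statistics used scipy 1.17.1.

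The clock genes and all lists were chosen with earlier results of these data known. The text names all 10 clock genes, up to 5 genes of each companion list that changed by 0.5 or more on the log2 scale in either direction, the most abundant gene of each marker list, and the 5 genes outside the lists nearest to Arntl and to Dbp. Nampt, Por, Sln, Cd68, Tef, Klf9, Ttn, Cry2, Mt1, and the further marker genes were chosen after their values were seen. Some genes of the companion lists that meet this rule are counted but not reported here by name. Alternatives were FPKM as deposited, quantile normalization, other pseudocounts and filters, eBayes without trend and robust options, voom, the replicate block and each library left out.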

Additional observations from a re-analysis of the deposited data

How the results depend on the processing

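The clock genes passing an adjusted p of 0.05 stayed at 0 in all alternatives except the fit without the 3 libraries with atrial transcripts, which left Chow replicates 1 and 2 against HFpEF replicate 3 and assumes that the lone library varies like Chow. There 2 genes passed, Nr1d1 (log2 fold change −1.40, adjusted p = 0.00185) and Dbp (−0.58, adjusted p = 0.0445), in a fit that called 4894 genes (34.4%) in all, and 5 were at an unadjusted p under 0.05, as were 45.3% of all genes. Leaving out both libraries numbered 3 gave 1 clock gene at an unadjusted p under 0.05 (22.7% of all genes), 3 without overlap (55.2% of all genes), an arm difference of −0.074 and 342 genes in all. Both of these settings were chosen after the data were seen, and in the one with a lone HFpEF library the arm difference was 0.87. Leaving out 1 library gave 0 to 1 clock genes at an unadjusted p under 0.05 (13.4% to 25.2% of all genes), 0 to 2 without overlap (41.9% to 47.6% of all genes), an arm difference of 0.24 to 0.94 and 2 to 1188 genes in all. The count of all genes past an adjusted p of 0.05, 14 with limma as described, was 3 with a pseudocount of 1, 5 with 0.01, 33 without trend and robust options and 0 with voom. Where so few of all genes passed, 0 of the 10 clock genes carries little information.

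Directions turned without both libraries numbered 3 for Arntl (−0.0076), Dbp (0.058), Nr1d2 (0.024), Per1 (0.051) and Per3 (0.19). For Arntl this removed the lowest Chow and the highest HFpEF value, and for the others the highest Chow and the lowest HFpEF value. A shift that way was thus fixed beforehand. Directions also turned for Nr1d2 with quantile normalization (0.0013), for Cry1 without HFpEF replicate 1 (0.011), and for Per3 without Chow replicate 3 (0.025) or HFpEF replicate 3 (0.066). With 1 library left out at a time, Cry1 ran from −0.38 to 0.011 and Per3 from −0.20 to 0.066. The cause was not tested. An FPKM minimum of 1 left Arntl and Npas2 untested. Deviations of same-numbered libraries correlated at −0.041, −0.073 and −0.057, and those of other pairs at −0.0022 to 0.072. Correlations over all genes cannot show pairing that touches only a few, so whether replicate numbers pair the mice was not settled. The replicate block called 2 genes in all and 0 clock genes. Arntl and Npas2, with as few as 30 and 16 reads in a library, are the least precise.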

Other observations

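Genes that respond to hormones, heat and fasting were also listed, since these signals reach the clock. Among 8 temperature-responsive genes, Hspa1a, an inducible HSP70 chaperone, rose in HFpEF, with 0.568, 0.603 and 0.697 FPKM across Chow replicates 1 to 3, against 2.75, 2.17 and 3.30 across HFpEF replicates 1 to 3 (log2 fold change 1.96, SE 0.21, adjusted p = 0.0493 from limma, 0.00712 to 0.236 over the alternatives). Its near-identical copy Hspa1b differed by 1.41 on that scale (adjusted p = 0.119), and reads between the copies are uncertain. The median of the 8 genes was 0.20, and 0.073 without HFpEF replicate 3.

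Among 8 glucocorticoid-induced genes, 0 passed an adjusted p of 0.05 (limma), 3 had an unadjusted p under 0.05 with a positive change, against 23.4% of all genes in either direction, and the median log2 fold change was 0.0027 (0.057 without HFpEF replicate 3 and 0.16 without Chow replicate 3). Fkbp5, a chaperone of the glucocorticoid receptor, had 1.42, 1.42 and 1.76 FPKM across Chow replicates 1 to 3, against 2.01, 2.74 and 3.75 across HFpEF replicates 1 to 3 (log2 fold change 0.80, adjusted p = 0.144 from limma). The other two were Mt2, a metallothionein (1.40, adjusted p = 0.156), and Cdkn1a, a cell cycle inhibitor (1.49, adjusted p = 0.177, and 0.84, adjusted p = 0.04997, without HFpEF replicate 3, the library in which it stood at 16.5 FPKM against 3.90 and 4.55 in the other HFpEF libraries). Of 6 tested fasting-induced genes, 0 passed an adjusted p of 0.05 and 3 had an unadjusted p under 0.05, all negative, beside the same 23.4% of all genes. Plin5, a lipid droplet protein, differed by −0.75 (adjusted p = 0.0847 by limma), and Acot1, an acyl-CoA thioesterase, −0.65 (adjusted p = 0.0757), with the HFpEF libraries below all Chow libraries for both. Without HFpEF replicate 3, where limma called 1188 genes (8.35% of those tested), both passed (adjusted p = 0.0126 for Plin5 and 0.0169 for Acot1). Ventricular cardiomyocyte markers moved with them, 8 of 8 lower in every HFpEF library and with a median log2 fold change of −0.61, or −0.39 without HFpEF replicate 3, and their part in these values was not tested.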
